A study of Mus musculus with 2 samples.

Results

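The miR-148/miR-152 family was examined in small RNA of E9.5 hearts, that is, hearts of wild type C57BL/6 mouse embryos at embryonic day 9.5, in 2 libraries that are the only samples. Its members are miR-148a, miR-148b and miR-152, taken as every precursor row with one of these names in the deposited tables, without regard to the arm. Each name had 1 row, so the family accounts for 3 of 568 precursor rows (called entries here) in replicate 1 and 3 of 523 in replicate 2. The family was chosen by its name and selected on the abundance of miR-148a-3p in these same libraries, so its levels, its rank and the comparisons with miR-148a-3p inside a library are a description and carry no test. Tests are given for differences between the libraries, which share those reads, and for miR-152 against miR-148b. The labels do not say how many hearts were pooled or whether the RNA came from separate litters, and p-values here compare 2 libraries and may reflect technical differences only. Total RNA was prepared with TRIZOL and made into libraries with a TruSeq small RNA kit. There is 1 group, and no conditions were compared.

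A miRNA is cut from a hairpin whose arms, 5p and 3p, can each give a short single-stranded RNA. The arm with more reads is called mature in the tables and the opposite arm star. The bases from 2 to 8 of the mature RNA, its seed, pair with the mRNAs it represses, and miRNAs with the same seed form a family because their predicted targets largely coincide. In mammals the miR-148/miR-152 family is known for repressing the DNA methyltransferase Dnmt1, and miR-148a is known as an abundant miRNA of the liver and of B lymphocytes.

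The mature sequences are shown because they are what makes these loci a family. They are the RefSeq entries (build GRCm38.p6), found for all 3 members, 5′ to 3′ with the seed in capitals.
miR-148a-3p: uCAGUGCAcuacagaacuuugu
miR-148b-3p: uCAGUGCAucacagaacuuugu
miR-152-3p: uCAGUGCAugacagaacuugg
The seed was the same in each, and no other entry had it on its mature arm or on its star arm. Counted from 1 at the 5′ end, miR-148a-3p and miR-148b-3p differed at 2 of 22 positions, by C9U and U10C. From miR-148b-3p to miR-152-3p the changes were C10G and U20G among 21 positions. From miR-148a-3p to miR-152-3p they were C9U, U10G and U20G. Each mature sequence of 21 nt listed in the tables occurred 1 time in the mouse genome NCBIM37 (mm9), so an exact read belongs to 1 locus. The mismatches allowed in mapping are not given in the sources used here, so the split of reads between such similar members is uncertain to that extent.

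The opposite arms share less. They are shown because the reads on them set miR-152 apart.
miR-148a-5p: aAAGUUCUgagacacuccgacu
miR-148b-5p: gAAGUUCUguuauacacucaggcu
miR-152-5p: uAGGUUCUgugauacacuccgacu
The seed of the 5p arm was the same in miR-148a and miR-148b, and it occurred on the star arm of only those 2 entries and on no mature arm. In miR-152-5p it was changed by A3G, and its seed was that of 1 star arm and of no mature arm. The first base also differed, by A1G from miR-148a-5p to miR-148b-5p and by A1U from miR-148a-5p to miR-152-5p.

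The hairpins as listed in the tables, with the mature 3p arm in capitals, were as follows.
miR-148a: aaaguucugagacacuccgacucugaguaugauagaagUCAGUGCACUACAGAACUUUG
miR-148b: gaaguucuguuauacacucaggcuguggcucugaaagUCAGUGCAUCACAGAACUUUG
miR-152: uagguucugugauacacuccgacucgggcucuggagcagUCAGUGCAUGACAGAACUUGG
The mature sequence in the tables began at the same base as in RefSeq for every member. It was 1 base shorter at the 3′ end for miR-148a-3p and miR-148b-3p and of equal length for miR-152-3p. In both libraries the tables gave the same mature and star sequences. Between the hairpins, miR-148b and miR-152 were identical at 80.0% of 60 aligned columns, and miR-148a was identical to each of them at 75.4% of 61. The stretch between the arms was the least alike, with 58.8% identity between miR-148a and either of the others. RNAfold gave the hairpins minimum free energies of -17.5 kcal/mol for miR-148a, -18.7 for miR-148b and -22.7 for miR-152. For the 187 entries that reached 1000 mature reads in each library the median was -23.8 kcal/mol, with the 5th and 95th percentiles at -32.8 and -14.1, so all 3 lay above the median and inside that range.

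The loci of the members resemble each other. In mm9 the miR-148a hairpin occupies 51219829 to 51219887 of chromosome 6 (minus strand), where GENCODE vM1 has only its own gene Mir148a and Gm9953, at 13644 bp, is the nearest other gene. The miR-148b hairpin occupies 103115579 to 103115636 of chromosome 15 (plus strand), in intron 1 of Copz1 on the same strand. The miR-152 hairpin occupies 96711714 to 96711773 of chromosome 11 (plus strand), in intron 1 of Copz2, also on the same strand. Copz1 and Copz2 encode related zeta subunits of COPI, the coat of vesicles that return from the Golgi. The hairpin is 12207 bp from the exon before it in Copz1 and 404 bp in Copz2, and it overlaps no exon in any of the annotated transcripts of either gene.

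Around each hairpin the annotation lists a Nfe2 family gene, a Cbx gene of the heterochromatin protein HP1 family and a Hox cluster, all to one side of the hairpin and in the same order. These genes were looked up after the annotation had been seen. Next to miR-148a they are Nfe2l3 at 163 kb, Cbx3 at 200 kb and the Hoxa genes at 885 kb. Next to miR-148b they are Nfe2 at 26.7 kb, Cbx5 at 45.3 kb and the Hoxc genes at 248 kb. Next to miR-152 they are Nfe2l1 at 20.4 kb, Cbx1 at 41.8 kb and the Hoxb genes at 482 kb. No other entry lay near the hairpins, and the closest ones were miR-196b-5p at 960205 bp from miR-148a, miR-6963-5p at 65252 bp from miR-148b and miR-8103 at 213370 bp from miR-152. None of the members is part of a cluster of miRNA genes in these data.

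**Figure D1:**
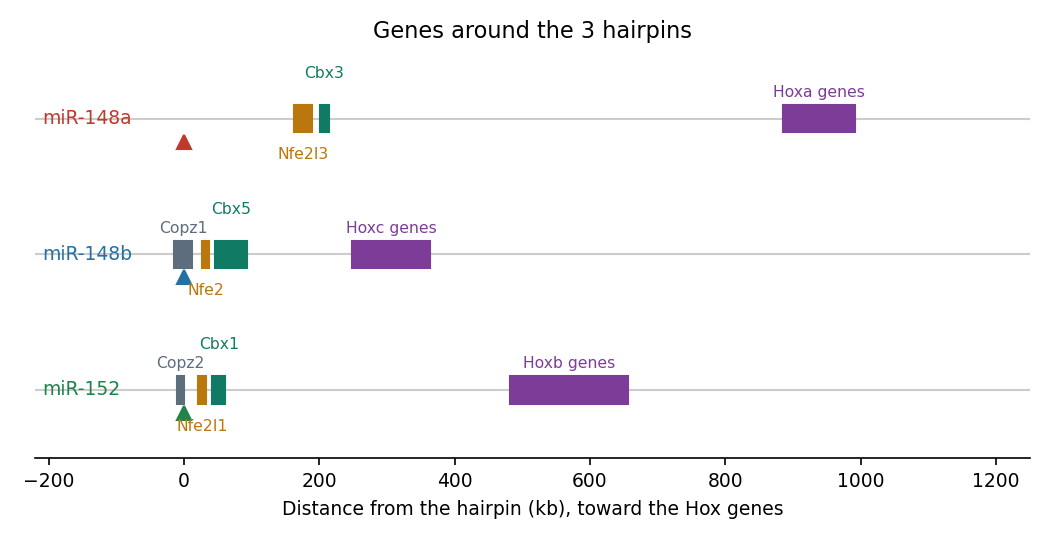
Genes around the hairpins of miR-148a, miR-148b and miR-152 in GENCODE vM1, each drawn to scale along the distance from the hairpin (triangle) in kb, with the direction of the Hox genes to the right. The 3 loci hold a Nfe2 family gene, a Cbx gene and a Hox cluster in the same order, and Copz1 and Copz2 host 2 of the hairpins.

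The abundance of a member is given as its percent of all mature reads of a library, of which there were 4942257 in replicate 1 and 4806179 in replicate 2. Precursors with the same mature sequence, such as those of miR-1a, are each credited with its reads in the tables, so these totals hold some reads more than once. By reads, miR-148a-3p was the dominant member in this tissue. The 324560 mature reads of replicate 1 were a share of 6.57% (6.55% to 6.59%, the 95% Wilson interval), and the 254949 of replicate 2 were 5.30% (5.28% to 5.32%). This gave a mean share of 5.94% ± 0.89 (SD, n = 2) and rank 4 among the 471 entries listed in both libraries. With each mature sequence counted once the mean share of miR-148a-3p was 8.12%. The ranks count entries, so a sequence with several entries, such as miR-1a at ranks 1 and 2, fills several places above the members. MiR-148b-3p had 15278 and then 12973 mature reads. Its shares were 0.309% (0.304% to 0.314%) and 0.270% (0.265% to 0.275%), with a mean of 0.290% ± 0.028 (SD, n = 2) and rank 54. MiR-152-3p had 10183 and 9271 mature reads. Its shares were 0.206% (0.202% to 0.210%) and 0.193% (0.189% to 0.197%), with a mean of 0.199% ± 0.009 (SD, n = 2) and rank 65. The order of the members was the same in both libraries and their values did not overlap. The intervals cover read-counting error only, and the reads carry no molecular identifiers.

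**Figure D2:**
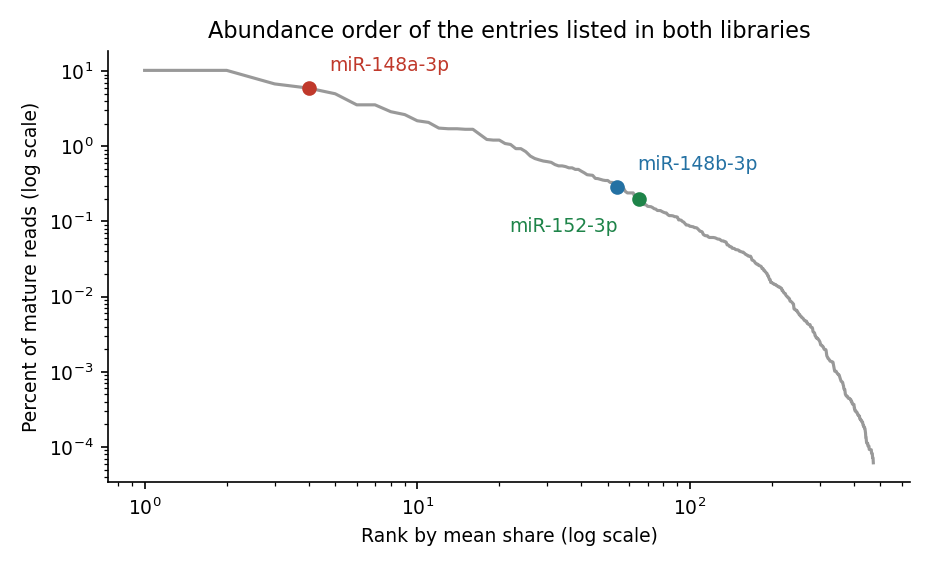
Mean percent of mature reads (log scale) against rank (log scale) for the 471 entries listed in both libraries, with the 3 members marked at their mean and a vertical bar over the 2 libraries that is mostly hidden by the point. MiR-148a-3p stands at rank 4, and miR-148b-3p and miR-152-3p at ranks 54 and 65.

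Next to miR-148a-3p in the order stood miR-143-3p, a miRNA of smooth muscle and fibroblasts, with 7.32% in replicate 1 and 6.19% in replicate 2. The libraries of these neighbours overlapped in range, but within each library miR-143-3p was the higher. Below it, miR-127-3p from the imprinted Dlk1-Dio3 region had 4.72% and 5.27%, under both values of miR-148a-3p. The next one, miR-21a-5p, had 3.77% and 3.34%. The muscle miRNA miR-1a-2-3p, the second entry above miR-148a-3p, had 9.97% and 10.48%. The range of miR-148b-3p overlapped those of its neighbours miR-322-3p, miR-423-3p and miR-93-5p, and did not reach that of miR-17-5p (0.325% and 0.336%). The range of miR-152-3p overlapped those of miR-758-3p, miR-302b-3p and miR-466i-5p, while miR-210-3p was lower in both libraries (0.171% and 0.179%). With 2 libraries no pattern over samples could be matched, so likeness here is distance in mean share alone.

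Summed over its members, the family's mature reads came to 350021 and 277193. In replicates 1 and 2 that was 7.08% and 5.77% of mature reads, a mean of 6.42% ± 0.93 (SD, n = 2). MiR-148a-3p made up 92.7% of the family in replicate 1 and 92.0% in replicate 2. MiR-148b-3p made up 4.36% and 4.68%, and miR-152-3p 2.91% and 3.34%. Per read of miR-148b-3p there were 21.2 and 19.7 reads of miR-148a-3p, and per read of miR-152-3p there were 31.9 and 27.5. MiR-148b-3p exceeded miR-152-3p by 1.5 times in replicate 1 and 1.4 times in replicate 2.

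The family was also placed among all miRNAs grouped by seed, where a sequence with several entries was taken from the one with most reads. This leaves 3596858 and 3494539 reads of entries listed in both libraries. Among 330 seeds the family's ranked 3, with 9.73% of these reads in replicate 1 and 7.93% in replicate 2. The seeds above it were those of miR-1a, at a mean of 14.1%, and of miR-143-3p, at 9.29%. Among the 32 seeds that had at least 2 sequences the family ranked 2, below that of miR-1a with miR-206-3p. The families next below were miR-92a with miR-25-3p and their relatives, at 4.56% ± 0.47, and miR-30, at 3.51% ± 0.10 (SD, n = 2 for each). In the miR-92a family the leading sequence held 65.9% of the family's reads as a mean of the libraries, and in the miR-30 family 33.3%, against 92.4% for miR-148a-3p. Of the 18 such families with at least 0.1% of these reads, 4 had a larger leading part than the miR-148/miR-152 family, and the median was 84.6%. These 4, named after their values were seen, were led by miR-1a-1-3p, miR-7a-5p, miR-292a-5p and miR-103-2-3p.

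The 3p arm was the mature arm of every member in both libraries, although the tables label each row with the 5p name. The star reads of the 5p arm were not used to choose the family. MiR-148a-5p had 1575 reads in replicate 1 and 1459 in replicate 2. For miR-152-5p there were 1193 and 1210, and for miR-148b-5p 148 and 123. The values of the members did not overlap. On the 5p side the ratio of miR-148a to miR-152 was 1.32 and 1.21 in replicates 1 and 2, against 31.9 and 27.5 on the 3p side. The minor members stood in the opposite order on this arm, where miR-152-5p exceeded miR-148b-5p by 8.06 and 9.84 times. Of the star reads of the family, miR-148a-5p held 54.0% and 52.3%, miR-152-5p 40.9% and 43.3%, and miR-148b-5p 5.08% and 4.41%.

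**Figure D3:**
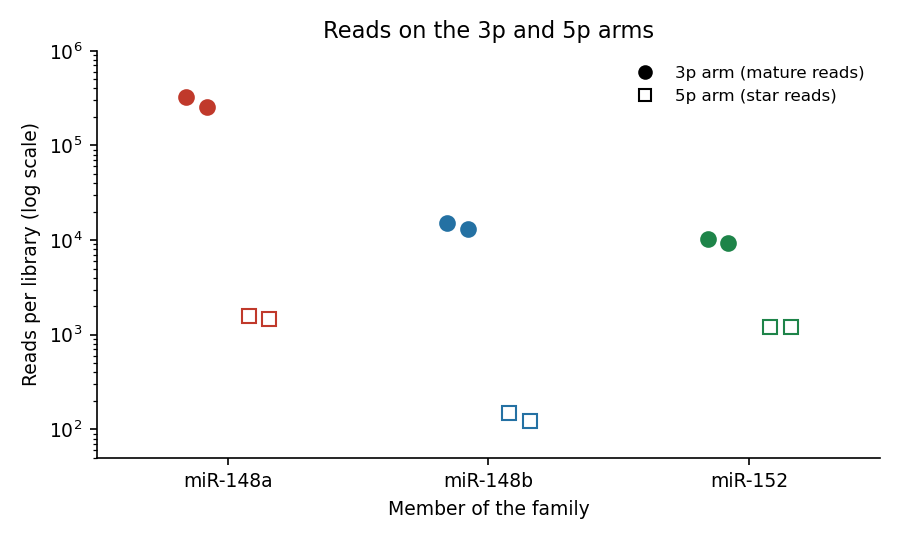
Reads on the 3p arm (filled circles) and the 5p arm (open squares) of each member on a log scale, with replicate 1 on the left and replicate 2 on the right of each pair. The lowest 3p reads are those of miR-152 (10183 and 9271), while its 5p reads (1193 and 1210) lie close to those of miR-148a (1575 and 1459).

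Arm use, the star reads as a percent of mature plus star reads, separated the members. For miR-152 the value was 10.5% (95% interval by Wilson's method, 9.94% to 11.1%) in replicate 1 and 11.5% (10.9% to 12.2%) in replicate 2, a mean of 11.0% ± 0.75 (SD, n = 2). For miR-148b it was 0.959% (0.817% to 1.13%) and 0.939% (0.788% to 1.12%). For miR-148a it was 0.483% (0.460% to 0.507%) and 0.569% (0.541% to 0.599%). The 3p arm thus had 8.54 and 7.66 reads per read of the 5p arm in miR-152, but 206.1 and 174.7 in miR-148a. The star share of miR-152 exceeded that of miR-148b by odds ratios of 12.1 and 13.8 (p = 1.2e-292 and 4.8e-296, two-sided Fisher's exact test, adjusted over the 6 pairs of members and libraries). The odds ratios against miR-148a, whose mature reads helped to choose the family, are given without a test. They were 24.1 and 22.8 for miR-152, and 2.0 and 1.66 for miR-148b. The test covers counting error, and each direction was the same in both libraries. Ratios between arms or members are ratios of reads from different sequences. Whether these sequences enter a library equally well was not tested.

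Among the 185 entries that kept their mature arm and reached 1000 mature reads in each library, miR-148a and miR-148b stood near the middle. The median arm use was 0.688%, and 89 of these entries had a lower value than miR-148a and 97 a lower value than miR-148b. For miR-152, 150 of the 185 had a lower value. Of the 185, 34 had no star reads in either library, some being a second hairpin listed for the same miRNA, such as miR-21a. These entries lower the median and add to the counts below each member. Among star arms, miR-148a-5p was at rank 20 in each library and miR-152-5p at rank 25. With 1575 and 1459 reads, miR-148a-5p also exceeded the mature reads of 399 of 568 entries in replicate 1 and of 351 of 523 in replicate 2. No loop reads were listed for any member in either library.

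**Figure D4:**
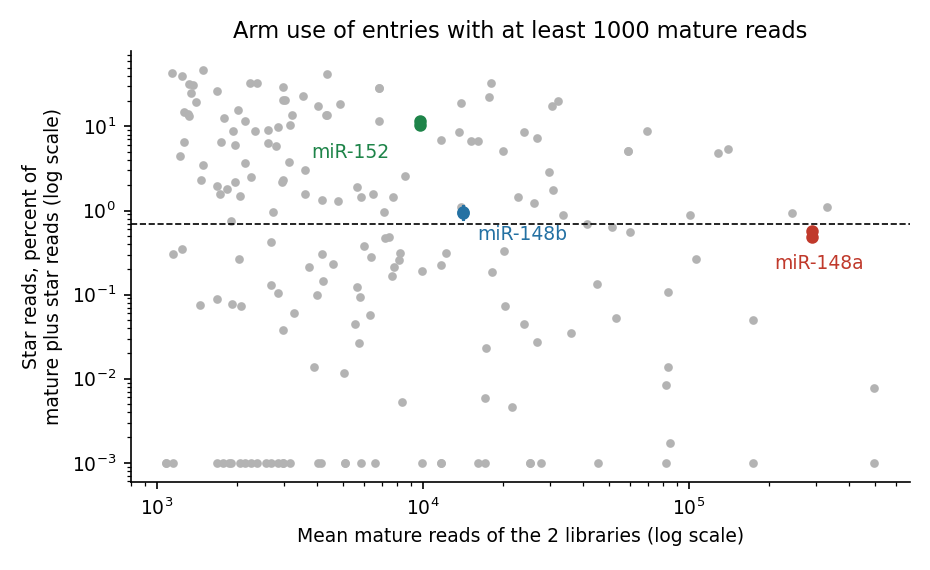
Star reads as a percent of mature plus star reads (log scale) against mean mature reads (log scale) for 185 entries with at least 1000 mature reads, as means of the libraries in grey and with both libraries for the members. The bar on each member spans the 95% intervals of both libraries, the dashed line is the median of 0.688%, and entries at or below 0.001% are drawn at 0.001. The points of miR-152 (10.5% and 11.5%) lie above the line, and those of miR-148a and miR-148b lie close to it.

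Arm use was also compared between the replicates by Fisher's exact test. It was run on every entry that kept its mature arm and had 20 or more mature plus star reads in each library. Of 377 entries, 8.75% passed an adjusted p of 0.05. The 377 include entries with no star reads in either library, which could not pass, so this percent is a low background. In miR-148a the 5p arm was used more in replicate 2 (adjusted p = 0.00014, exact test), a rise from 0.483% to 0.569%. For miR-152 it went from 10.5% to 11.5% without passing (adjusted p = 0.12, exact test). MiR-148b gave nearly equal values (adjusted p = 1, exact test).

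The replicates differed in the share of the 3p arms, and each member was lower in replicate 2. An exact binomial test was run on 431 entries listed in both libraries with at least 20 mature reads in sum, with Benjamini-Hochberg adjustment over all of them. By that test 41.1% of entries differed and 13.5% were lower in replicate 2, and all 3 members were among the latter. With edgeR's TMM factors in place of the totals, 86 entries were higher and 92 lower in replicate 2, against 119 and 58 with the totals. MiR-148a-3p was 19.2% lower in replicate 2, a log2 ratio of -0.31, and its p was below the smallest number the software holds. The log2 ratio was -0.20 for miR-148b-3p (adjusted p = 5.7e-29, exact binomial test) and -0.10 for miR-152-3p (adjusted p = 1.8e-05, exact binomial test). The difference was thus largest for miR-148a-3p and smallest for miR-152-3p, and a link of its size to abundance was not tested. Of the family's reads, the part of miR-148a-3p was 92.7% in replicate 1 and 92.0% in replicate 2 (p = 3.1e-28, Fisher's exact test, adjusted over the 3 members). That p covers counting error only, and this small difference was not tested against the spread between libraries.

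These tests count reads and leave out the variation between samples. When edgeR's exact test was given a common dispersion, a biological coefficient of variation of 15.2% estimated from the very libraries it then compares, none of the members passed (p = 0.32 for miR-148a-3p, 0.53 for miR-148b-3p and 0.76 for miR-152-3p, all with an adjusted p of 1). By that test 3 of the 431 entries differed, and 10 had an unadjusted p under 0.05. Among the 185 well covered entries the absolute log2 ratio of miR-148a-3p ranked 28, that of miR-148b-3p 65 and that of miR-152-3p 107, where the median was 0.12. In percentage points the change of miR-148a-3p, which fell by 1.26, was the largest of the entries listed in both libraries. The share of miR-143-3p fell by 1.12 points, and that of miR-127-3p rose by 0.55 points. The entries that were lower fell by 4.91 points in sum, of which miR-148a-3p made up 25.7%. This sum runs over entries, so the fall of a sequence with several entries, such as miR-21a-5p, is counted more than once.

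**Figure D5:**
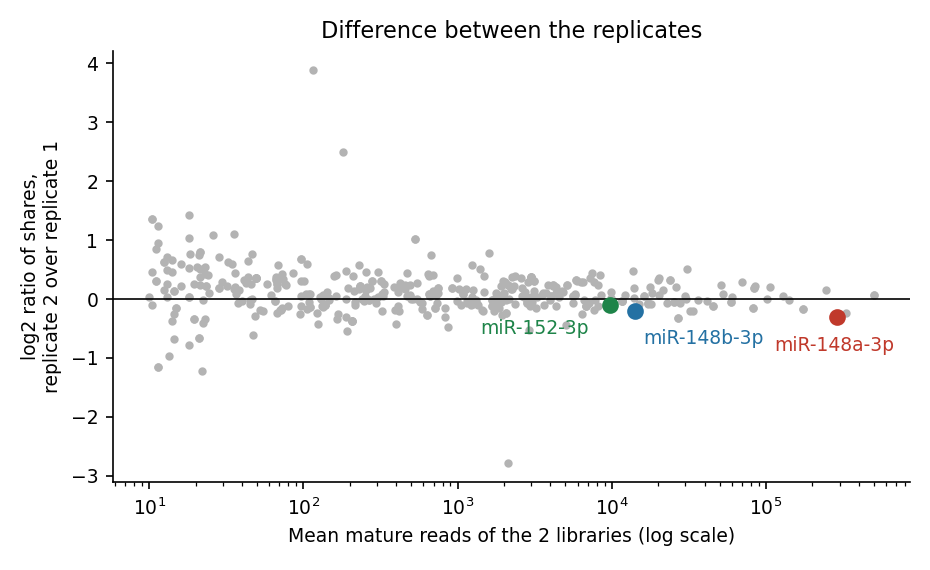
Log2 ratio of the share in replicate 2 over that in replicate 1 against mean mature reads (log scale) for the 431 tested entries in grey, with the members in colour. All 3 members lie below 0, at -0.31, -0.20 and -0.10, and miR-148a-3p lies at the lower edge of the entries of like abundance.

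Other cell types were followed by marker miRNAs, each counted at every entry it has. A sequence with several entries therefore has its reads summed more than once. The cardiac and muscle list (miR-1a, miR-133a, miR-208a, miR-208b and miR-499), all 5 of which were listed, held shares of 22.6% and 23.5% in replicates 1 and 2, and miR-208a was listed only in replicate 1. Most of that sum was miR-1a, whose reads enter it at each of its entries, as do those of miR-133a. A single entry of miR-1a held 9.97% and 10.48%, and a single entry of miR-133a 1.23% and 1.19%. MiR-122, the defining miRNA of the liver, held 0.0422% and 0.0554%. White blood cell markers (2 of 3 listed, with miR-223 listed in neither library) held 0.00552% and 0.00522%. Erythroid markers (3 of 3 listed, miR-144 only in replicate 2) held 0.220% and 0.273%. Nearly all of these reads were of miR-486a, with 5456 and 6534 at its minus-strand entry and 5264 and 6380 at its plus-strand entry. MiR-451a had 128 and 127 reads, and miR-144 had 73 in replicate 2. Epithelial markers (5 of 5, miR-141 only in replicate 1) held 0.0274% and 0.0278%, and pluripotent ones (4 of 5, without miR-302a) 0.403% and 0.391%. Neural markers held 0.0193% and 0.0148%, a sum in which every entry of miR-9 repeats the same 237 and 178 reads. A single miR-9 entry held 0.00480% and 0.00370%. MiR-124 had 2 reads per entry in replicate 1 and was not listed in replicate 2. Endothelial miR-126a held 2.90% and 2.87%, and miR-375 of endocrine cells 22 and 17 reads. Their part in the levels of the family was not tested. In whole hearts, fewer cells with a miRNA and less of it per cell cannot be told apart.

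To give the seed a context in mRNAs, the longest annotated 3′ UTR of each gene was searched for TGCACTG, the reverse complement of bases 2 to 8 of the family, on the sense strand only. Of 19915 genes with a 3′ UTR in GENCODE vM1, 12.3% held at least 1 match. Among genes often named as targets of this family, Dnmt1 and Acvr1 held a match and Cdkn1b held none. The 3′ UTR of Acvr1 has 1105 nt, and 10.9% of 3′ UTRs within 10% of that length had a match. For the 3439 nt of Cdkn1b it was 29.8%. Dnmt1, which copies DNA methylation after replication, had 1 match in a 3′ UTR of only 315 nt, where 2.65% of 3′ UTRs within 10% of that length had one. The site is shown as read from NCBIM37, 5′ to 3′ along the mRNA with the match in capitals, at chr9:20711928-20711954 on the minus strand. It is followed by an A, which lies opposite base 1 of the miRNA.
Dnmt1: cagagccccacgTGCACTGatgttttt
Of 6 vascular genes named in the study, Flna, an actin-binding protein, held 2 matches, but its longest 3′ UTR belongs to a transcript typed as nonsense-mediated decay, and 1 of the matches lies where 4 other transcripts code for protein. In a search limited to protein-coding transcripts, added after the first counts had been seen, Flna held 1 match in 329 nt, and 3.08% of 3′ UTRs of like length had one. Ctgf, Egfl7, Vegfb, Hif3a and Hspg2 held none in either search. The limited search found a match in 11.8% of 19899 genes and left the counts of Dnmt1, Acvr1 and Cdkn1b as they were. A match is a string of letters and no measure of repression, and mRNA levels were not analysed here.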

How the data were processed

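The authors sequenced each of 2 small RNA libraries with a read length of 50 nt and mapped the clean reads to mm9 with miRDeep2. They deposited raw read counts per precursor of known miRNAs, split into mature, loop and star reads, with no normalization. The deposited miRDeep2 score was not used. Tool versions, trimming and allowed mismatches are not given in the sources used here. All 568 and 523 listed hairpins were identical to NCBIM37 after positions were set to count from 1. Entries of the replicates were paired at 50% mutual overlap. Members and gene lists were chosen with earlier results of these data known. The text names every member, its 2 neighbours on each side by mean share, the nearest seed families and the listed genes except some that are not reported here. Genes are those of GENCODE vM1. Tests were exact binomial and Fisher's exact tests (scipy 1.17.1) and the exact test of edgeR 4.0.16 under R 4.3.3. The tests were tried on simulated data. DESeq2 1.42.0 gave size factors only, and ViennaRNA 2.7.2 and Biopython 1.88 were used for hairpins. Alternatives changed the scaling, the counting of entries, the reads used, the filter and the test.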

Additional observations from a re-analysis of the deposited data

How the results depend on the processing

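With each mature sequence counted once, the mean share rose to 8.12% for miR-148a-3p and to 8.79% for the family. Leaving out one replicate gave 5.30% to 6.57% for miR-148a-3p, 5.77% to 7.08% for the family and 92.0% to 92.7% for the part of miR-148a-3p in the family. With edgeR's exact test and the common dispersion the log2 ratios of -0.31, -0.20 and -0.10 lost significance (adjusted p of 1 for each), and the number of entries that differ fell from 177 to 3, because that test adds the spread between the libraries. With the other settings that rescaled or recounted the reads, all 3 members stayed lower in replicate 2 and past the threshold, with log2 ratios from -0.38 to -0.30 for miR-148a-3p, from -0.26 to -0.19 for miR-148b-3p and from -0.16 to -0.08 for miR-152-3p. DESeq2's size factors gave 78 entries higher and 98 lower in replicate 2. The number of entries that differ in arm use was 33, and 34 under either alternative. The difference in arm use of miR-148a passed in both, and that of miR-152 in neither. Arm use, the pairs of members and the part of miR-148a-3p in the family were tested for counting error only. No test with a spread between libraries was run for them.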
